A study of Mus musculus with 6 samples.

Results

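Microglia of mice that had become helpless after inescapable shocks are compared here with microglia of shocked mice that had not. The cells are those the authors typed as microglia in the acute helpless library, 630 cells, and in the acute non-helpless library, 569 cells, together 1199 of the 3005 cells of the series. Hippocampi of BC57BL/6 mice were taken without meninges and choroid plexus, and live CD45+ cells were sorted and profiled with a droplet kit that reads transcript 5′ ends. Both groups had received 180 inescapable shocks of 0.3 mA, each lasting 6 to 10 s with rests of 5 to 45 s, and had a test of 30 trials, 24 s each, on the next day, and tissue was taken directly after the paradigm. The groups therefore share the shocks and the test and differ in the behaviour shown in it. The sources used here give neither age nor sex nor the number of mice behind a library. Each group is 1 library, so no spread between mice can be had and no test between groups was possible. The deposited batch number is 1 for the acute helpless and 2 for the acute non-helpless library, so behaviour and batch cannot be told apart in any value below, and the sources used here do not say what a batch number stands for. Microglia of the other libraries are used only to show where a level stands. They are non-shocked microglia of batch 2 (123 cells) and batch 3 (429 cells), and, all in batch 3, chronic non-helpless (499), chronic non-recovered (99) and chronic recovered microglia (372), from mice retested weekly for 3 weeks.

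Microglia are the resident macrophages of the brain. They sense tissue damage, purines, noradrenaline and cytokines through surface receptors and carry the glucocorticoid receptor, through which the stress hormone corticosterone acts on transcription. Stressors also engage fast programmes in these cells, among them the AP-1 immediate early genes, the heat shock response and NF-kB dependent chemokines.

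The summed microglia held 2711534 UMIs in the acute helpless and 2267306 UMIs in the acute non-helpless library, with medians of 4161 and 3676 UMIs per cell. The libraries shared 0 cell barcodes, and 3 of their barcodes were also found in other libraries. The label microglia was borne out by all 8 microglial markers, P2ry12 and Tmem119 among them, whose summed levels were 38034 and 34397 CPM, which are UMIs scaled to the same total in each library. All 8 neutrophil and all 6 erythrocyte markers were at 0 in both libraries. Summed T cell markers stood at 6.64 CPM in helpless and 44.1 CPM in non-helpless microglia, NK cell markers at 12.9 and 25.1, monocyte markers at 9.22 and 19.4 and border macrophage markers at 23.6 and 11.0 CPM. B cell markers summed to 332 and 283 CPM, most of it Ighm at 221 and 225 CPM, and Cd79a had 37 UMIs in helpless and 0 in non-helpless microglia, Ebf1 36 and 2. Endothelial markers stood at 630 and 584 CPM, most of it Bsg at 610 and 548 CPM. Astrocyte markers stood at 256 and 185 CPM, nearly all Slc1a3 at 254 and 184 CPM. Oligodendrocyte markers stood at 47.9 and 52.0 CPM, most of it Mag at 35.0 and 32.2 CPM. Of 8 markers for each type, 6 endothelial, 4 astrocyte and 3 oligodendrocyte markers had any UMI in these microglia. Neuron markers stood at 1.84 and 8.38 CPM. Among the sets used for levels, the batch 2 non-shocked microglia were shallow, with a median of 905 UMIs per cell, and the chronic non-recovered microglia held 22472 CPM of neutrophil markers.

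Most genes lay close together in the 2 libraries. Among 6493 genes with a mean of at least 20 CPM, the median difference either way was 1.17-fold and the 90th percentile 1.67-fold. At least 1.5-fold higher in helpless microglia were 513 genes (7.9% of those measured), and 501 (7.72%) were at least 1.5-fold lower, so that 50.6% of the genes past the threshold were higher. With median-of-ratios scaling the counts were 599 and 366, and 62.1% were higher. Of the genes described below, Zfp36, Ier5, Cdkn1a, Bhlhe41, Nfkbid, Pfkfb3, Tnfrsf1b and H2-Eb1 were under 1.5-fold with that scaling, at log2 ratios from -0.51 to -0.58. Large differences were more often upward, with 306 genes (4.71%) at least 2-fold higher and 100 (1.54%) at least 2-fold lower. Ratios are given with exact 95% intervals from the UMI counts, which cover counting error only and are too narrow where few cells hold a gene. The same threshold was passed by 5.67% of 6626 genes between chronic recovered and chronic non-helpless microglia, which share batch 3, and by 45.4% of 7124 genes between the batch 3 and the shallow batch 2 microglia of the non-shocked group. The share of 15.6% between the acute libraries lies between these values. The chronic recovered and chronic non-helpless sets lie on the same side of a pattern within batch 3 that is described further on. Their 5.67% therefore does not stand for pairs of batch 3 sets across that pattern, which were not compared here.

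**Figure D1:**
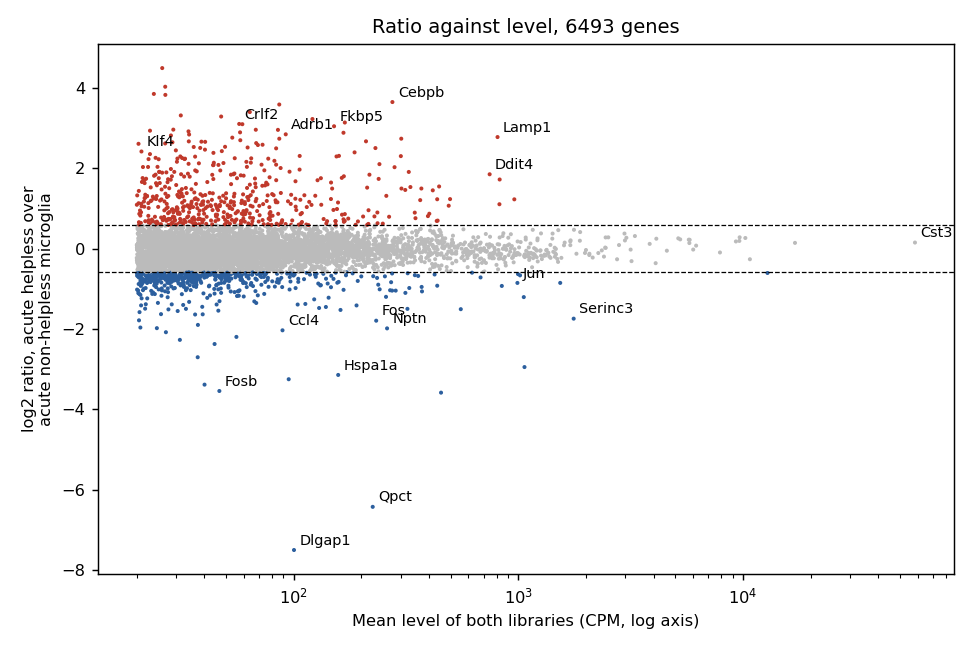
Each point is a gene; the horizontal axis gives its mean level in both libraries in CPM on a log axis and the vertical axis the log2 ratio of acute helpless over acute non-helpless microglia. Dashed lines mark 1.5-fold; the 513 red genes lie above and the 501 blue genes below, with Cebpb, Fkbp5, Ddit4 and Lamp1 high and Fosb, Hspa1a and Serinc3 low.

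Glucocorticoid-induced genes past 1.5-fold went both ways, while the list median lay slightly on the higher side. Of 25 listed genes, 14 reached the minimum level, 2 of them were higher, 2 were lower, and their median log2 ratio was 0.17 beside -0.06 over all genes measured. Fkbp5, a co-chaperone that lowers the hormone affinity of the glucocorticoid receptor and is itself induced by it, stood at 270 CPM in helpless and 32.6 CPM in non-helpless microglia. In the other sets Fkbp5 was at 74.5 CPM in non-shocked batch 2, 44.7 in non-shocked batch 3, 27.7 in chronic non-helpless, 178 in chronic non-recovered and 19.1 in chronic recovered microglia. The helpless level was thus the highest of the 7 sets, while the non-helpless level lay among the low ones. The acute ratio was 8.27-fold (6.51 to 10.7), and 413 of 630 helpless against 66 of 569 non-helpless cells had at least 1 Fkbp5 UMI.

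Ddit4, a stress-induced inhibitor of the growth kinase complex mTORC1, stood at 1168 CPM in helpless and 323 CPM in non-helpless microglia, a ratio of 3.61-fold (3.33 to 3.92). The other 5 sets ran from 23.5 CPM in non-shocked batch 3 to 276 CPM in chronic non-recovered microglia. Both acute libraries therefore lay above every other set for Ddit4. The other glucocorticoid-induced genes were closer: Tsc22d3, a leucine zipper protein that mediates anti-inflammatory effects of the hormone, was at 426 and 304 CPM, a ratio of 1.40-fold (1.27 to 1.54). Glul, which makes glutamine, was at 2055 and 1483 CPM, and Sgk1, a kinase, at 728 and 597 CPM. Per1 and Txnip differed by log2 ratios of 0.17 and 0.04. In the opposite direction Dusp1, a phosphatase that switches off stress kinases, was at 68.6 and 191 CPM, 2.78-fold lower (2.34 to 3.32), and Cdkn1a, a brake on the cell cycle, was at 28.8 and 45.4 CPM, 1.58-fold lower (1.17 to 2.15). The 10 cells with most Cdkn1a UMIs held 56.4% of them in helpless and 62.1% in non-helpless microglia.

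The receptor itself, Nr3c1, was at 160 CPM in helpless and 113 CPM in non-helpless microglia, where the other sets ran from 121 to 200 CPM. Of 10 measured genes of the receptor and its partners, 0 were at least 1.5-fold higher and 1 was lower, the coactivator Ncoa2 at 29.1 against 47.2 CPM, which in cells thinned to 1000 UMIs was under the threshold at a log2 ratio of -0.27. Fkbp4, the co-chaperone that competes with Fkbp5, was at 116 and 79.8 CPM. Among 15 measured genes of mTORC1 and its regulators, Ddit4 was the 1 gene past 1.5-fold. The other 14 ranged in log2 ratio from -0.47 for Tsc1 to 0.28 for Eif4ebp2.

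**Figure D2:**
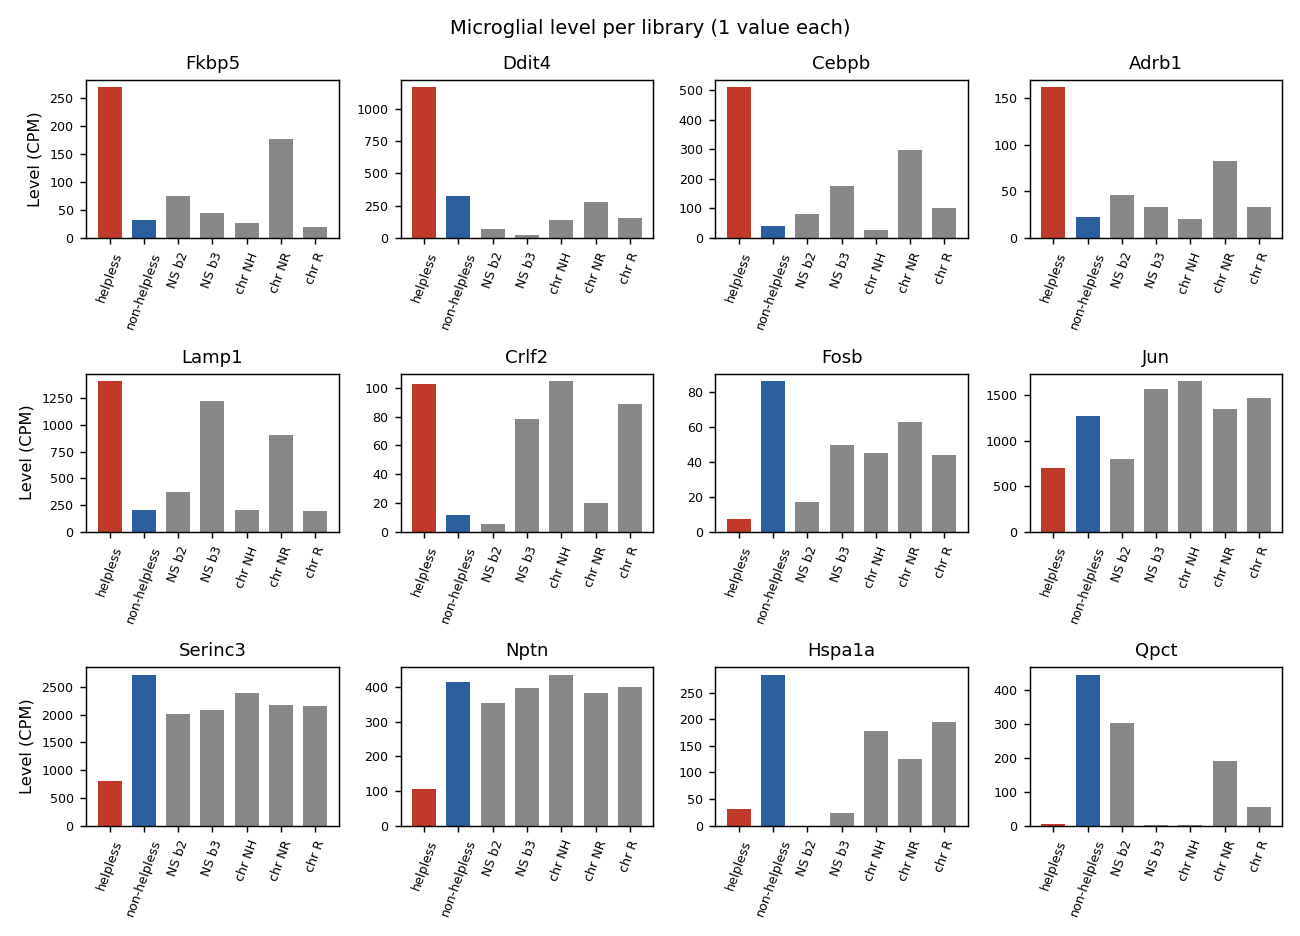
Bars give the summed microglial level of 12 genes in CPM on axes from 0, 1 value per set, for acute helpless (red), acute non-helpless (blue), non-shocked batch 2 and batch 3 (NS b2, NS b3) and chronic non-helpless, non-recovered and recovered microglia (chr NH, chr NR, chr R). Fkbp5, Ddit4, Cebpb and Adrb1 were highest in the helpless library, and Fosb, Serinc3 and Nptn lowest there.

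Heat shock chaperones refold proteins, and their inducible members are switched on by the factor HSF1. Of 20 measured genes, 4 were at least 1.5-fold lower and 0 higher in helpless microglia, with a median log2 ratio of -0.34. The inducible Hsp70 genes differed most. Hspa1a was at 32.1 CPM in helpless and 284 CPM in non-helpless microglia, 8.84-fold lower (7.06 to 11.2), and Hspa1b at 7.01 and 73.2 CPM, 10.4-fold lower (6.48 to 17.8). At least 1 Hspa1a UMI was found in 51 helpless and 179 non-helpless cells.

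The genes Hspa1a and Hspa1b are near-identical copies, so how reads were split between them is uncertain. Their upstream sequences show how alike they are: the 250 bases before each start, at chr17:34972157-34972406 and chr17:34959239-34959488 on the minus strand (RefSeq, GRCm38.p6), had the same base at 247 positions. Capitals mark the letters GAANNTTC, the short heat shock element, searched on both strands and found 104 bases before the start in both.
Hspa1a: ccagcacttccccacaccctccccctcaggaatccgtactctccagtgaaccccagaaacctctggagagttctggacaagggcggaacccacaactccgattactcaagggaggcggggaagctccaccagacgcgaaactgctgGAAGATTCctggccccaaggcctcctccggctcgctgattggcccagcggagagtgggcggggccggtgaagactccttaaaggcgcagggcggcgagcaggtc
Hspa1b: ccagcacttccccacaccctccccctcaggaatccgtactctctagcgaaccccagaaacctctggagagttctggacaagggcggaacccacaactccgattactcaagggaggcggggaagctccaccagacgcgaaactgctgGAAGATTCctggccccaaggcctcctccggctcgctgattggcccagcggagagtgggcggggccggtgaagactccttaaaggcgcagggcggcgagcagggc
This short element occurred in 9 of 15 chaperone genes with a RefSeq promoter, or 60%, against 7.18% of 5044 measured genes. The longer form, which contains it and has a further GAA after 2 spacer bases, occurred in 5 of the 15, or 33.3%, against 0.654%. Among the genes that hold the longer form, Hsph1, whose copy reads TTCTGGAAAGTTC and lies after the start, was 2.73-fold lower (1.98 to 3.79), while Hspd1 and Dnajb6 had log2 ratios of -0.08 and -0.07, so genes with these letters lay both far from and close to level.

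For Hspa1a the other sets held 0 CPM in non-shocked batch 2, 24.1 in non-shocked batch 3, 179 in chronic non-helpless, 125 in chronic non-recovered and 195 CPM in chronic recovered microglia. The helpless level lay near that of the non-shocked sets, and the non-helpless level was the highest of all. Dnajb1, the Hsp40 partner of Hsp70, was at 114 and 203 CPM, 1.77-fold lower (1.53 to 2.06). Constitutive chaperones differed little: Hspa8 was at 1400 and 1543 CPM and Hsp90ab1 at 1071 and 1167 CPM. Of 18 measured genes of the unfolded protein and integrated stress responses of the endoplasmic reticulum, 1 was higher and 1 lower, with a median of -0.11. These were Dnajc3, an inhibitor of the kinase PERK, at 227 and 150 CPM (a log2 ratio of 0.60 that was 0.55, under the threshold, with each cell weighted equally), and Ppp1r15a, which lifts the block on translation, at 19.5 and 38.8 CPM. Hspa5, the main chaperone of that compartment, was at 791 and 853 CPM.

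Immediate early genes are transcribed within minutes of a stimulus. Among 16 measured genes of this list, 9 were lower in helpless microglia and 0 higher, with a median log2 ratio of -0.64. Fosb, an AP-1 subunit, was at 7.38 CPM in helpless and 86.0 CPM in non-helpless microglia, 11.7-fold lower (7.35 to 19.5). The other 5 sets ran from 17.2 to 62.5 CPM, so the acute libraries were the lowest and the highest of the 7. Fos was at 104 and 362 CPM, 3.47-fold lower (3.02 to 3.98), with 407, 435, 296 and 398 CPM in the batch 3 sets and 68.8 CPM in non-shocked batch 2. For Fos the helpless level was thus low and the non-helpless level like those of batch 3.

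The broadly expressed members differed by less. Jun was at 706 and 1276 CPM, 1.81-fold lower (1.70 to 1.91), and Junb at 582 and 1107 CPM, 1.90-fold lower (1.79 to 2.03). Ier2 and Atf3 were 2.60-fold (2.16 to 3.13) and 2.62-fold (1.95 to 3.54) lower. Zfp36, whose protein destabilises cytokine mRNAs, was 1.55-fold lower (1.46 to 1.64), and Ier5, an activator of heat shock factor, 1.56-fold lower (1.43 to 1.70). With each cell weighted equally the log2 ratio of Zfp36 was -0.53, under 1.5-fold. In cells thinned to 1000 UMIs, Jun and Ier5 were also under 1.5-fold, at -0.57 and -0.49. Not every member was lower. Egr1 was at 94.8 and 98.4 CPM, and Rhob, Jund and Zfp36l2 had log2 ratios of 0.27, 0.28 and 0.27.

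Dusp1 belongs to the immediate early as well as to the glucocorticoid-induced genes and was lower in helpless microglia, as given above. Its sequence is shown because it holds the cAMP response element TGACGTCA (capitals), 143 bases before the start at chr17:26508473-26508722 on the minus strand (RefSeq, GRCm38.p6). Of 13 list members with a promoter, Dusp1 and Btg2 held these letters, against 3.87% of 5044 measured genes.
Dusp1: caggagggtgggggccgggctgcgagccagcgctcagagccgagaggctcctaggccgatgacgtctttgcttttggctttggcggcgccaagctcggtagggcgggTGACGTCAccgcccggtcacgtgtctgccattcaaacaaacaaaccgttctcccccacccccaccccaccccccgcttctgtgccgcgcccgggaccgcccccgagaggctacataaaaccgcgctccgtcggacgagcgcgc
Dusp1 levels in the other sets were 22.9 CPM in non-shocked batch 2 and 115 to 152 CPM in batch 3. The non-helpless level of 191 CPM was the highest of the 7 sets. Btg2, an antiproliferative immediate early gene, was at 570 and 844 CPM, just inside the 1.5-fold threshold.

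Transcription factors of the C/EBP and KLF families showed the opposite direction. Of 11 measured genes, 5 were higher and 0 lower, with a median log2 ratio of 0.22. Cebpb, which drives inflammatory and metabolic programmes of macrophages, was at 510 CPM in helpless and 40.6 CPM in non-helpless microglia, 12.6-fold higher (10.2 to 15.7). The other sets gave 80.3 CPM in non-shocked batch 2, 177 in non-shocked batch 3, 26.3 in chronic non-helpless, 296 in chronic non-recovered and 100 CPM in chronic recovered microglia. Helpless microglia had the highest Cebpb level, and the non-helpless level lay near the lowest. Cebpa, a determinant of the myeloid lineage, was at 391 and 90.9 CPM, 4.30-fold higher (3.70 to 5.02), and Cebpg, a dimer partner, at 260 and 74.5 CPM, 3.49-fold higher (2.95 to 4.15). Klf4 was at 35.4 and 6.62 CPM, 5.35-fold higher (3.09 to 9.93), and at 5.73 to 19.7 CPM in the other sets. Klf2 and Klf6 lay on the lower side within 1.5-fold, at log2 ratios of -0.56 and -0.57. Cebpd, listed here and among the glucocorticoid-induced genes, was not among the measured genes. It had 0 UMIs in both acute libraries and in non-shocked batch 2, but 250 to 322 CPM in the batch 3 sets. Gene symbols also differ in part between batch 3 and the other batches, as given under the processing. The reason for the absence of Cebpd was not tested. The positive median rests on genes that also part the batch 3 libraries, described further on: without them 8 genes are left and the median is -0.28.

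Chemokines and cytokines were lower or similar. Of 10 measured genes, 4 were lower and 1 higher, with a median of -0.51. Ccl4, a chemokine that attracts leukocytes, was at 35.0 CPM in helpless and 143 CPM in non-helpless microglia, 4.09-fold lower (3.25 to 5.20), and Ccl3, a related chemokine, at 19.2 and 59.5 CPM, 3.10-fold lower (2.24 to 4.36). These UMIs came from few cells. Ccl4 was found in 13 helpless and 42 non-helpless cells, the 10 cells with most held 96.8% and 82.8% of its UMIs, and a single non-helpless cell held 139 of 325. With each cell weighted equally the log2 ratio of Ccl4 moved from -2.03 to -0.42, and in cells thinned to 1000 UMIs to -0.23, both under 1.5-fold. Within deposited clusters 1, 2 and 3 it was -5.05, 0.17 and 0.88, so the direction differed between clusters. For Ccl3 the top 10 cells held 86.5% and 74.8%, and without the non-helpless cells of cluster 5 its log2 ratio was -0.49.

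Ccl5, a chemokine also made by T and NK cells, was at 10.3 and 43.7 CPM, with all UMIs in 3 helpless and 10 non-helpless cells, and its log2 ratio of -2.08 was -1.02 without doublets and cells of low marker share. The T cell markers given above were likewise higher in non-helpless microglia, and their part in the Ccl5 difference was not tested. Ccl12, a monocyte attractant, was spread over 69 and 114 cells and was 2.08-fold lower (1.62 to 2.69) at 36.9 and 76.7 CPM. Tgfb1, the cytokine microglia depend on, was the 1 member higher, at 664 and 316 CPM, 2.10-fold (1.92 to 2.29). Its level in helpless microglia lay inside the range of the other sets, 250 to 733 CPM.

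**Figure D3:**
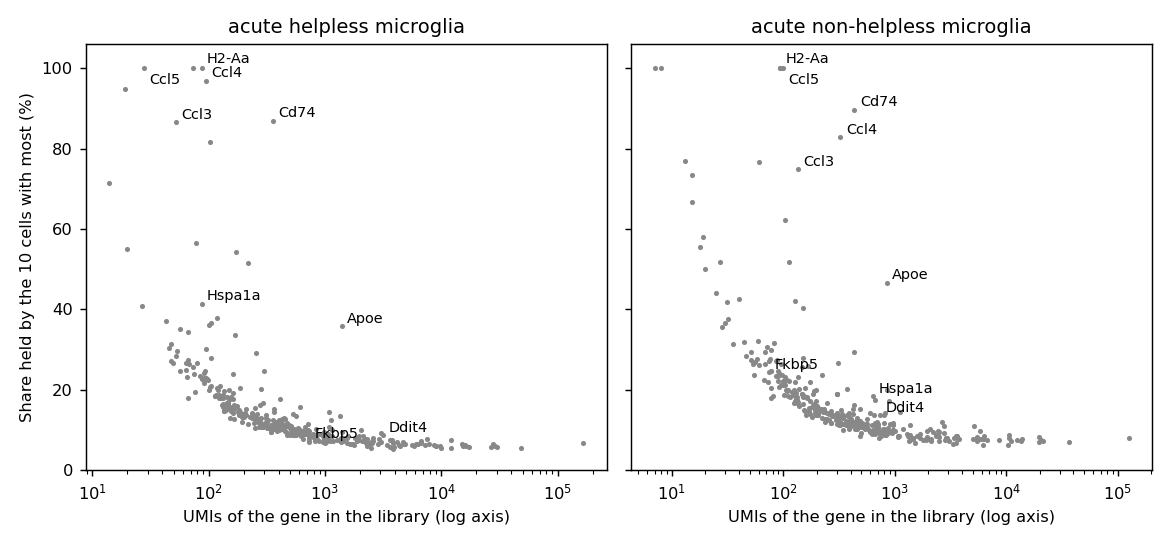
For list members that reached the minimum level, the horizontal axis gives the UMIs of the gene in the library on a log axis and the vertical axis the share of them held by the 10 cells with most, for helpless (left) and non-helpless microglia (right). Ccl4, Ccl3, Ccl5, H2-Aa and Cd74 lie above 70%, while Fkbp5 in helpless and Ddit4 in both lie under 25%.

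NF-kB subunits and feedback genes leaned lower, with 3 of 14 lower, 0 higher and a median of -0.28. Tnfaip3, the deubiquitinase A20 that ends NF-kB signalling, was at 17.7 and 37.5 CPM, 2.12-fold lower (1.47 to 3.08), and below the 39.4 to 82.3 CPM of the other 5 sets. Birc3, an inhibitor of apoptosis, was at 24.0 and 45.0 CPM, 1.88-fold lower (1.36 to 2.60), and its log2 ratio in cells thinned to 1000 UMIs was -0.31. Nfkbid was 1.51-fold lower (1.01 to 2.27). Nfkbia, which encodes the inhibitor IkBa, stood on the other side at 412 and 353 CPM, and both acute levels were above the 154 to 313 CPM of the other sets. Tnfaip3 and Nfkbia are shown because both feedback genes hold the NF-kB site (GGG, any 2 bases, TTTCC) near the start and yet differed in direction. The 250 bases before the starts shown lie at chr10:19015411-19015660 and chr12:55492648-55492897 on the minus strand (RefSeq, GRCm38.p6). Capitals mark the site, here read on the opposite strand, 12 and 29 bases before the start. In Tnfaip3 they also mark an AP-1 site (TGANTCA) 136 bases before the start. A second Tnfaip3 start, with upstream bases at chr10:19011964-19012213, holds neither site and is not shown.
Tnfaip3: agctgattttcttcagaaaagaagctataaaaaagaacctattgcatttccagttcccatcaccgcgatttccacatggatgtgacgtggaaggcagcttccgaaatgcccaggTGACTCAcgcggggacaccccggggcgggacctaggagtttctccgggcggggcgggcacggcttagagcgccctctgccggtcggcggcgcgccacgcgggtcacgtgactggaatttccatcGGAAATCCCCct
Nfkbia: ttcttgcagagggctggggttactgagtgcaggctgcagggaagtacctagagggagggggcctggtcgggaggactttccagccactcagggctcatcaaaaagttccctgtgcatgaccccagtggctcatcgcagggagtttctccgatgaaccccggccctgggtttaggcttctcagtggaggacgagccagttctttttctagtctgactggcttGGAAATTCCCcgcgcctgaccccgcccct
The NF-kB letters occurred in 3 of 11 list members with a promoter, the third being Rel, against 1.80% of 5044 measured genes. Rel itself was at 66.7 and 95.7 CPM.

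Cytokine and chemokine receptors had 3 of 24 members higher and 2 lower, with a median of -0.08. Crlf2, a subunit of the TSLP receptor, was at 103 and 11.9 CPM, 8.61-fold higher (5.79 to 13.3). Its level was also low in non-shocked batch 2 (5.73 CPM, from 1 UMI) and chronic non-recovered microglia (19.7 CPM, from 6 UMIs) and high in the other batch 3 sets, 78.3 to 105 CPM. The acute non-helpless library thus lay with a shallow set of each of batches 2 and 3 for Crlf2. Il6ra, the receptor of interleukin 6, was 2.31-fold higher (2.09 to 2.57) at 511 and 221 CPM, and Ifngr2, a subunit of the interferon gamma receptor, 1.87-fold higher (1.65 to 2.12) at 307 and 165 CPM. Il13ra1 was 1.94-fold lower (1.59 to 2.37) and Tnfrsf1b, a TNF receptor, 1.54-fold lower (1.31 to 1.81), and both were below all other sets in helpless microglia. In cells thinned to 1000 UMIs their log2 ratios were -0.19 and -0.25, and that of Ifngr2 was 0.53. Cx3cr1, the fractalkine receptor, was at 4505 and 4665 CPM.

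TGF-beta signalling keeps microglia in their resting identity. Of 14 measured genes, 4 were higher and 0 lower, with a median of 0.03. Besides Tgfb1 these were Smad7, the feedback inhibitor (2.54-fold, 2.07 to 3.13), Itgb5 (2.34-fold, 2.2 to 2.50) and Itgav (1.58-fold, 1.33 to 1.90), integrin subunits that bind and release the latent cytokine. Itgb5 was at 1346 CPM in helpless and 574 CPM in non-helpless microglia, and at 1146, 1018, 426, 1017 and 372 CPM in the other sets in the order given above. The receptors Tgfbr1 and Tgfbr2 had log2 ratios of 0.03 and -0.20. Smad7, Itgb5 and Itgav are also among the genes that part the batch 3 libraries.

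Microglial identity was similar in both libraries. Of 25 homeostatic genes, 23 were within 1.5-fold, 1 was higher and 1 lower, with a median of 0.14 that median-of-ratios scaling put at 0.22. Cst3, a secreted protease inhibitor, had a log2 ratio of 0.15, P2ry12 of 0.08 and Tmem119 of 0.31. Serinc3, a membrane protein, was at 812 CPM in helpless and 2716 CPM in non-helpless microglia, 3.35-fold lower (3.19 to 3.51), against 2006 to 2381 CPM in the other sets. Helpless microglia stood apart for Serinc3, although about as many cells held a UMI, 556 and 559. Crybb1, a crystallin, was 1.83-fold higher (1.66 to 2.01) at 519 and 284 CPM. Csf1r, the receptor microglia need to survive, was at 3579 and 4596 CPM, both below the 5641 to 7924 CPM of the other sets.

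Activation lists showed little. Of 14 disease-associated microglia genes 0 passed 1.5-fold in either direction, with a median of 0.14, and without the non-helpless cells of cluster 5 the median was 0.27. Apoe was at 517 and 374 CPM. Of 24 interferon response genes 4 reached the minimum level, 0 of these passed 1.5-fold, and the 20 others had at most 95 UMIs over both libraries. All 16 measured complement and Fc receptor genes lay within 1.5-fold, with C1qa at 11192 and 9307 CPM. In the presentation list, 0 of 21 were higher and 2 lower. H2-T23, a nonclassical class I gene that has close relatives and is uncertain for that, was 2.88-fold lower (2.46 to 3.38) at 83.3 and 240 CPM, against 168 to 200 CPM in the other sets. H2-Eb1, a class II gene, was at 27.3 and 41.0 CPM, but all its UMIs came from 4 helpless and 10 non-helpless cells, 71 of 74 and 57 of 93 of them from 1 cell each, and without the non-helpless cells of cluster 5 its log2 ratio turned to 2.69. Cd74, the class II invariant chain, was as concentrated, with 274 of 358 helpless UMIs in 1 cell.

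**Figure D4:**
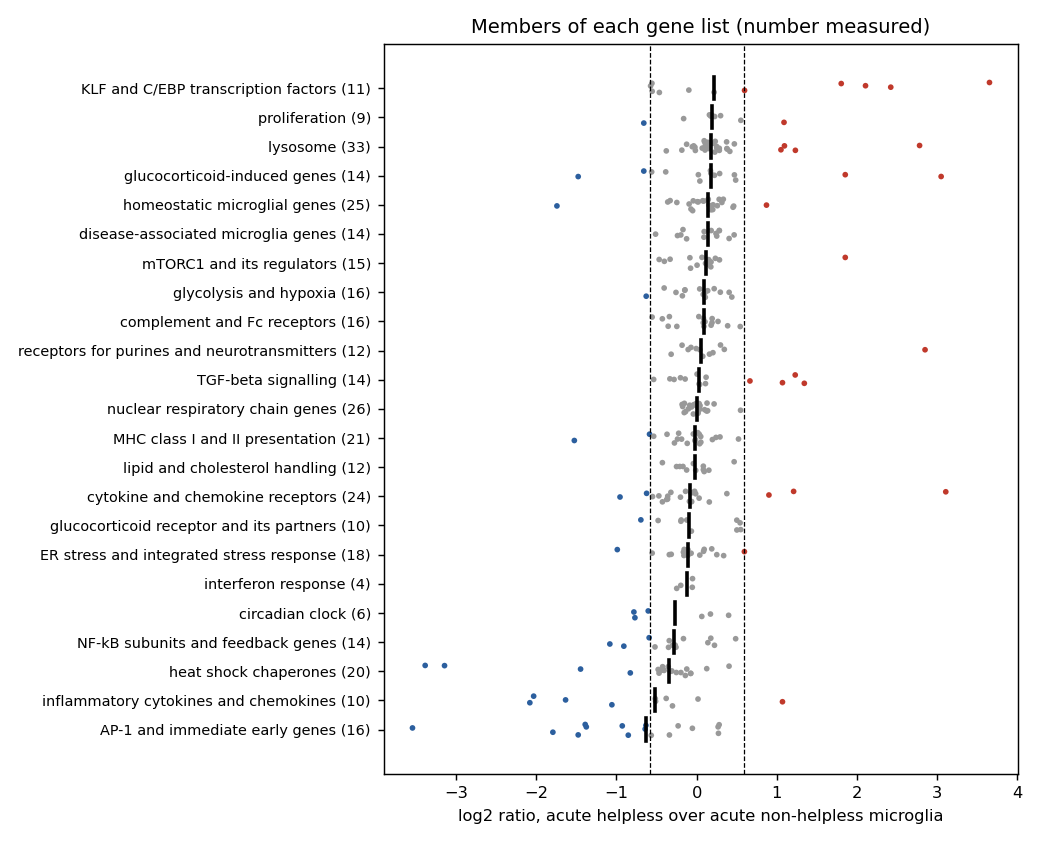
Each row is a gene list with its number of measured members; points are genes placed by log2 ratio of acute helpless over acute non-helpless microglia, the black bar is the median and dashed lines mark 1.5-fold. Medians run from -0.64 for immediate early genes to 0.22 for KLF and C/EBP factors, and the interferon, disease-associated, complement, respiratory chain and lipid lists have 0 members past the lines.

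Lysosomal genes, which degrade what microglia engulf, had 4 of 33 members higher and 0 lower, with a median of 0.18. Lamp1, a main protein of the lysosomal membrane, was at 1411 CPM in helpless and 206 CPM in non-helpless microglia, 6.87-fold higher (6.23 to 7.57). In the other sets it was at 373 CPM in non-shocked batch 2, 1228 in non-shocked batch 3, 207 in chronic non-helpless, 908 in chronic non-recovered and 197 CPM in chronic recovered microglia. Lamp1 levels thus fell into a high and a low set of libraries that cut across groups and batches. Mcoln1, a calcium channel of the lysosome, was 2.14-fold higher (1.56 to 2.96) and Tfeb, the transcription factor of lysosomal genes, 2.07-fold (1.55 to 2.79). The cathepsins Ctsd and Ctss had log2 ratios of 0.28 and -0.02, and Lamp2 -0.38, so the difference of Lamp1 was not shared by its paralog.

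Among 12 measured receptors for purines and neurotransmitters, Adrb1 alone passed 1.5-fold. This beta-1 adrenergic receptor for noradrenaline was at 162 CPM in helpless and 22.5 CPM in non-helpless microglia, 7.2-fold higher (5.38 to 9.82), and was found in 276 and 47 cells. Its levels in the other sets were 45.9 CPM in non-shocked batch 2, 33.6 in non-shocked batch 3, 20.6 in chronic non-helpless, 82.3 in chronic non-recovered and 33.0 CPM in chronic recovered microglia. Helpless microglia were the highest for Adrb1 and non-helpless microglia were near the lowest. The purine receptors P2ry12, P2ry6, P2ry13 and P2rx7 had log2 ratios of 0.08, 0.30, -0.07 and 0.20.

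Respiratory chain, lipid and glycolysis lists were nearly level. All 26 nuclear respiratory chain genes and all 12 lipid genes lay within 1.5-fold, with medians of 0.00 and -0.03. Of 16 glycolytic and hypoxia genes 1 was lower, Pfkfb3, which stimulates glycolysis, at 27.7 and 42.8 CPM against 55.6 to 68.8 CPM elsewhere. In cells thinned to 1000 UMIs its log2 ratio was -0.23. In the circadian clock list 3 of 6 were lower, with a median of -0.27 that turned to 0.05 with totals free of mitochondrial and ribosomal protein genes, and to 0.17 in thinned cells. Dbp, an output gene of the clock, was 1.72-fold lower (1.21 to 2.46), Nr1d2 1.71-fold (1.19 to 2.46) and Bhlhe41 1.52-fold (1.23 to 1.89). For Dbp the non-helpless level of 36.2 CPM stood above the 5.73 to 21.0 CPM of the other 6 sets. Of 9 measured proliferation genes 1 was higher and 1 lower. The higher was Stmn1, a tubulin-binding protein, at 63.8 and 30.0 CPM, whose 10 top cells held 54.3% of the UMIs in helpless microglia and whose log2 ratio without them was 0.40.

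The helpless library stood apart from all other sets more often than the non-helpless one, mostly on the low side. These counts are not like for like, because the helpless library is the only set of batch 1. The non-helpless library shares batch 2 with a non-shocked set. Any difference of batch 1 counts here as the helpless library standing apart, and its part was not tested. For these counts 2 CPM were added to every level. Of the genes lower in helpless microglia, 139 lay at least 1.5-fold below all 6 other sets in the helpless library. In the non-helpless library, 14 of them lay as far above all other sets. Of the genes higher, 18 stood apart in the helpless and 10 in the non-helpless library. The 139 include Serinc3, Nptn, H2-T23 and Fosb, and the next 4 genes, which were named after their values were seen. Ddx5, an RNA helicase, was at 640 and 1476 CPM, against 1207 to 1479 CPM elsewhere. Hnrnph1, a splicing factor, was at 91.8 and 172 CPM and Eif4g2, a translation initiation factor, at 166 and 310 CPM. Pros1, the protein S ligand of the receptor Mertk, was at 156 and 359 CPM. Nptn, a cell adhesion molecule, was 3.96-fold lower (3.46 to 4.53) at 105 CPM, while the 6 other sets ran narrowly from 355 to 435 CPM.

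By the same rule, with 2 CPM added, the microglia of both batch 2 libraries stood apart from all others in 26 genes. Of these, 4 were higher and 22 lower in helpless microglia. Qpct, a glutaminyl cyclase, was at 5.16 and 445 CPM, and at 304 CPM in non-shocked batch 2. Bcl2a1d, which has near-identical copies and is uncertain for that, was at 18.1 and 172 CPM. Ubald2 was at 159 and 13.2 CPM and at 22.9 CPM in non-shocked batch 2. Dlgap1, a postsynaptic scaffold gene outside these 26, had 0 UMIs in helpless and 455 in non-helpless microglia, at least 181-fold lower. Its levels were 292 CPM in non-shocked batch 2, 0 in non-shocked batch 3 and chronic non-helpless, 135 CPM in chronic non-recovered and 23.7 CPM in chronic recovered microglia.

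Many of the genes higher in helpless microglia also parted libraries within batch 3. The batch 3 libraries, with 2 CPM added, were split into non-shocked and chronic non-recovered against chronic non-helpless and chronic recovered microglia. Both of the first were at least 1.5-fold above both of the others in 376 measured genes. The acute ratios did not enter this rule, but the minimum mean level in the acute libraries did. The split was also chosen with earlier results of these data known, so the acute ratios of these genes are no independent check on it. In the acute comparison, 285 of these (75.8%) were higher in helpless microglia and 1 was lower, with a median log2 ratio of 1.23. Cells with under 2.5% ribosomal protein UMIs were more frequent on the high side in both settings, at 33.8% of non-shocked and 53.5% of non-recovered against 15.6% of chronic non-helpless and 9.41% of recovered microglia in batch 3, and at 15.9% of acute helpless against 9.14% of acute non-helpless microglia. Without such cells in the acute libraries, an alternative chosen after seeing the data, 281 of the 376 were higher and 3 lower, with a median of 1.20. Non-shocked batch 2 microglia, which entered neither split, had the largest share of cells under 2.5% ribosomal protein UMIs, 65.0%. Their levels of the 376 genes lay on both sides. Itgb5 at 1146 CPM was near the helpless level, and Bri3 at 40.1 CPM, from 7 UMIs, near the non-helpless level of 34.4 CPM. The 285 made up 55.8% of the 511 genes higher that have a symbol in batch 3. Among the 6062 genes that parted batch 3 neither way, 226 (3.73%) were higher and 482 (7.95%) lower. Of the 20 genes with the highest ratios, 17 belong to the 376, among them Smagp, Fam122a, Cebpb, Ctbp1, Rac3, Arf5 and Bri3, and Ubald2, Crlf2 and Adrb1 do not. Fkbp5 is among them with the narrow margin its levels above show, and Ddit4, Klf4, Cebpa and Tgfb1 are not. The first 400 nt of the transcripts had a median GC content of 59.2% for the 376 genes, 59.6% for the genes higher, 53.8% for the genes lower and 55.4% for all measured genes. GC content thus moved with the direction, also for the 228 higher genes outside the 376 (59.4%), and its part in the ratios was not tested.

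**Figure D5:**
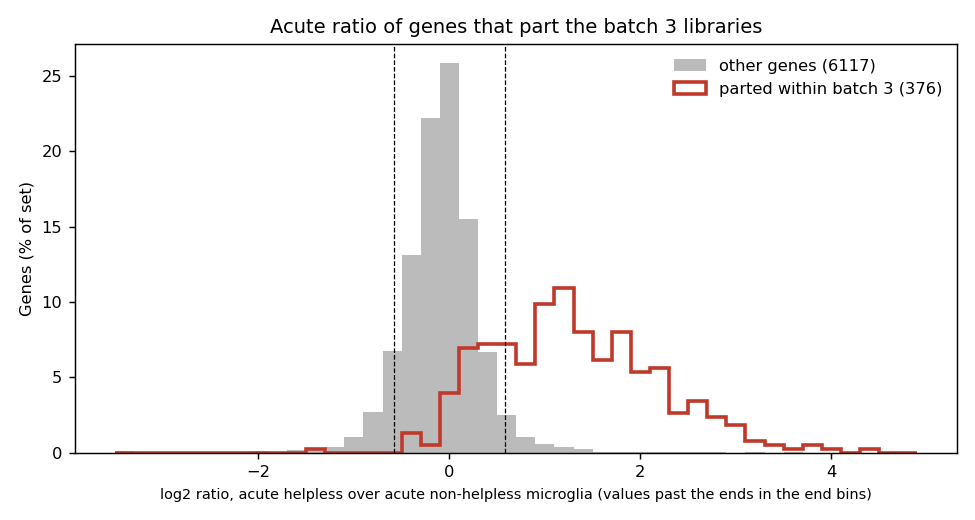
Histograms of the log2 ratio of acute helpless over acute non-helpless microglia, as percent of each set, for the 376 genes that part the batch 3 libraries (red line) and all other measured genes (grey); dashed lines mark 1.5-fold. The red set centres near 1.23 and the grey set near 0.

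Most differences kept their direction between cells of the same deposited cluster. Clusters 1, 2 and 3 held 291, 226 and 112 helpless and 234, 150 and 64 non-helpless cells. Cluster 5 held 0 helpless and 121 non-helpless cells, and cluster 4 held 1 helpless cell. Of the 513 genes higher, 452 were higher in each of the 3 clusters and 271 (52.8%) were at least 1.5-fold higher in each. Of the 501 genes lower, 445 were lower in each and 186 (37.1%) at least 1.5-fold. Both sets of genes were called on sums that include these same cells, so this agreement is partly built in and is no independent check. Over all genes measured within clusters 1, 2 and 3, each taken singly, 9.03%, 11% and 17% were at least 1.5-fold higher. The shares lower were 11.4%, 14% and 27.4%. These are shares per cluster, not of genes past the threshold in all 3. Fkbp5 was 8.15-fold, 8.09-fold and 5.78-fold higher, Cebpb 12.6-fold, 13.8-fold and 13.7-fold, and Hspa1a 8.77-fold, 10.1-fold and 4.57-fold lower. The Fkbp5, Cebpb and Hspa1a differences were therefore not confined to any of these clusters. Apoe was the reverse case, with log2 ratios of 0.40, 2.57 and 0.37, and its 10 top cells held 35.8% and 46.6% of its UMIs.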

How the data were processed

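The authors deposited raw UMI counts per gene and cell, with cell metadata, per the file headers, that give batch, cluster and cell type. The submitters' processing notes name Seurat 2.3.4, Cell Ranger 2.2.0 and build mm10. The sources used here do not say how cells were filtered and typed, and the deposited normalized matrices were not used here. Raw counts of microglia were summed per library and scaled to CPM, and the acute ratios used each gene symbol as deposited. Levels across sets, and the comparison of the non-shocked batches, used counts after 262 pairs of older and newer gene symbols were merged. The symbols of a pair were never both seen in batch 3 or both seen in the other batches. UMI sums equalled the deposited totals in 3005 cells. Ratios carry exact conditional intervals (scipy 1.17.1), tested on simulated data, and in log2 ratios a count under 3 in the lower library was set to 3. Named were the 20 top and 20 bottom genes by ratio among those with 50 CPM and 30 UMIs in the higher library, list members past 1.5-fold and the 2 list members with most UMIs. Not named were gene models, ribosomal, mitochondrial, haemoglobin, immunoglobulin and T cell receptor genes, and Xist or Y-linked genes, and a few other genes are not reported here. The members, the 23 lists and the batch 3 pattern were chosen with earlier results of these data known. Doublets were kept: Scrublet (scanpy 1.11.5) called 7 of 687 helpless and 11 of 586 non-helpless barcodes. Promoters are RefSeq's, 250 bases before to 50 after a start. Alternatives changed scaling, cell weights, depth, filters and thresholds.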

Additional observations from a re-analysis of the deposited data

How the results depend on the processing

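No paired analysis was possible because each group had 1 library, and for the same reason no library could be left out. The counts of 513 genes higher and 501 lower were 855 and 849 in cells thinned to 1000 UMIs, 922 and 1208 with a minimum of 5 CPM, 231 and 173 with 50 CPM, and 306 and 100 at 2-fold. Without the genes that part batch 3 libraries, an alternative chosen after seeing the data, 228 were higher and the KLF and C/EBP median turned to -0.28. Also chosen after seeing the data, leaving out non-helpless cells of cluster 5 gave a disease-associated median of 0.27 and an H2-Eb1 log2 ratio of 2.69. Median-of-ratios scaling gave a homeostatic median of 0.22. As means in place of medians, the lists gave -0.81 for immediate early genes, 0.78 for KLF and C/EBP factors, -0.62 for heat shock chaperones, 0.0498 for homeostatic genes, 0.31 for lysosome and 0.27 for purine and neurotransmitter receptors. For the counts, 17 other values stayed within 1.5 times, and 290 list medians moved by less than the median counting half-width of their members and 734 single gene ratios by less than their own. Among these medians, 10 lists changed sign under at least 1 setting: the circadian clock, whose median of -0.27 turned to 0.08 with cells weighted equally, and 9 lists with medians between -0.13 and 0.11. A further 63 single gene ratios moved without a change of sign. The cause was not tested. At this depth genes under 20 CPM, among them 20 of 24 interferon response genes, were not judged.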

Other observations

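Several genes below the minimum mean level were unequal. Ccl2, a monocyte attractant, had 1 UMI in helpless and 47 UMIs in non-helpless microglia, from 1 and 25 cells. Hspb1, a small heat shock protein, had 3 and 62 UMIs, from 3 and 20 cells, 10 of which held 83.9% of the 62, and was at 0 to 19.1 CPM in the other sets. Nfil3, a transcription factor linked to the clock, had 39 and 2 UMIs, from 37 and 2 cells. Bcl6, a repressor of inflammatory genes, had 3 and 24 UMIs. Nfkbiz was 2.97-fold lower (1.87 to 4.83) at 9.96 and 29.6 CPM.

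Cell cycle transcripts came from few cells. Mki67, Top2a and Rrm2 had 18, 23 and 32 UMIs in helpless microglia, from 4, 5 and 3 cells, and 0 in non-helpless microglia, at least 5.02-fold, 6.41-fold and 8.92-fold higher with 3 counts set for the non-helpless library. For Rrm2, 16 of the 32 UMIs came from 1 cell.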
